A study of Mus musculus with 6 samples.

Results

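Notch signalling is represented here by 10 genes, taken by name from the table of the deposited comparison: the receptors Notch1, Notch2 and Notch3, the ligands Dll1, Dll3 and Jag1, and the Hes and Hey genes Hes1, Hes5, Hes6 and Hey1. All 10 were found among the 25239 genes listed, and all 10 belong to the 18446 genes with a fold change. RNA came from the electroporated region of embryonic cortex of C57BL/6J mice, labelled wildtype in both groups. Electroporation in utero was done at E13.5 and tissue was collected at E15.5. One group of 3 libraries received a CRISPR edit (Breasi-CRISPR) that writes Thr280Ala into Ccnd2, the gene for cyclin D2, under the label MPPH, and the other group of 3 libraries received GFP only. No group was edited without the variant, so editing and variant cannot be told apart, and the values used here do not measure the share of edited cells. Whether embryos were pooled is not stated, so p-values measure the spread between these libraries, which may be technical.

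Notch receptors are cut after they bind a Delta or Jagged ligand on a neighbouring cell. The released intracellular part joins the DNA-binding protein RBPJ and activates Hes and Hey genes, which encode repressors of the basic helix-loop-helix class. In the embryonic cortex, radial glia keep Notch signalling and Hes1 and Hes5 on, while cells entering neurogenesis express proneural factors, Dll1 and Dll3. Hes6 differs from its relatives: it is expressed in differentiating cells and is known to oppose Hes1.

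None of the 10 genes was called. By the test in the authors' deposited table, 0 of 10 passed an adjusted p under 0.05 (DESeq2), beside 0.136% of all genes tested (0.0867% called positive, 0.0488% called negative), and 0 of 10 had an unadjusted p under 0.05, beside 3.96% of all genes tested. The sources used here do not state which group is the numerator, so a gene with a value above 0 is said to be higher on the positive side, and one below 0 on the negative side. Of the 10 fold changes in the authors' deposited table, 4 were positive and 6 negative, with a median log2 fold change of -0.03. The corresponding median was -0.01 for the 12019 genes whose mean reached 50 normalised reads. The 95% intervals from the authors' deposited table bound the difference: over the 10 genes they reached from a fold of 0.604 at the lowest, for Dll3, to 1.36 at the highest, for Hes1. A p above the threshold does not show that the groups were alike. Ccnd2 itself had 0.41 ± 0.29 as its log2 fold change in the authors' deposited table.

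**Figure D1:**
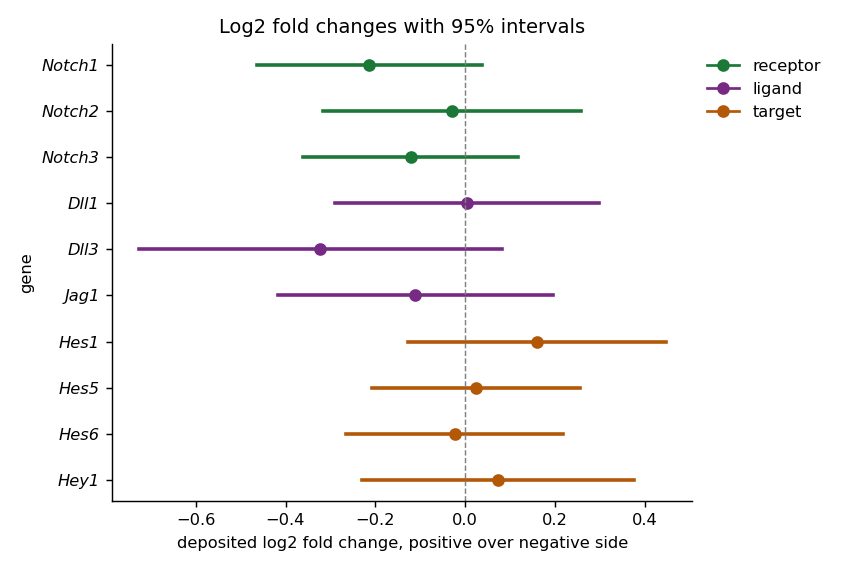
Deposited log2 fold changes of the 10 Notch genes (points) with 95% intervals (lines, fold change ± 1.96 standard errors), coloured by role; the dashed line marks no difference. Every interval spans 0, and that of Dll3, from -0.73 to 0.08, is the widest.

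The deposited means, fold changes and standard errors carry enough digits to be resolved into whole reads per library. For each of the 10 genes exactly 1 set of 6 whole numbers within the range searched gave the deposited mean and fold change. Within a side, numbers 1 to 3 follow falling size factors, and libraries are not matched to a label. The genes resolved in this way held 9003426 to 11855727 reads per library. That is a part of each library, because most genes with a mean above 4000 were not resolved.

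The tissue carried cortical markers, with means of 20121 normalised reads for Neurod6 and 2159 for Emx1 in the authors' deposited table. Marker sums of other cell types differed between libraries. Summed normalised reads of 8 meningeal markers came to 7051 in positive library 1, 9664 in positive library 2 and 402 to 564 in the other 4. Summed reads of 8 ventral forebrain markers were 1598 to 3122 for positive-side and 3514 to 7691 for negative-side libraries. Sums for 8 endothelial markers were 4384 to 6006 and 3990 to 4996, and for 7 mural markers 3133 to 3641 and 2802 to 3782, on the positive and negative side respectively. For 6 microglia markers the sums were 1057 to 2726 on the positive and 958 to 1657 on the negative side. Radial glia markers with resolved reads, 7 of 9, summed to 16792 to 19292 on the positive and 18230 to 20457 on the negative side. Of the 9, 6 were positive and 3 negative in the authors' deposited table. There Sox2 had a log2 fold change of -0.33 ± 0.10, with an unadjusted p of 0.00087 and an adjusted p of 0.20 (DESeq2). No marker was listed at 0 over all libraries, and the part of these differences in the values below was not tested. In such bulk samples fewer cells of a type and less RNA per cell cannot be told apart.

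Levels can be set side by side only per length, here as normalised reads per kb of annotated exon. Hes6 had the highest level, a mean of 1223 reads per kb with a range over the 6 libraries of 989 to 1339. Hes5 followed with 415 reads per kb and a range of 388 to 458, apart from both neighbours in the order. Hey1 (222 reads per kb), Dll1 (211), Dll3 (199), Hes1 (182), Notch1 (176), Notch3 (153) and Notch2 (140) followed in this order of mean level, and the library ranges of each neighbouring pair overlap. Jag1 had the lowest level of the 10, 73.2 reads per kb with a range of 64.1 to 86.4, below the lowest library of Notch2 at 110 reads per kb. Exon length was taken as the union of all annotated exons, so a gene that uses a short transcript is understated.

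**Figure D2:**
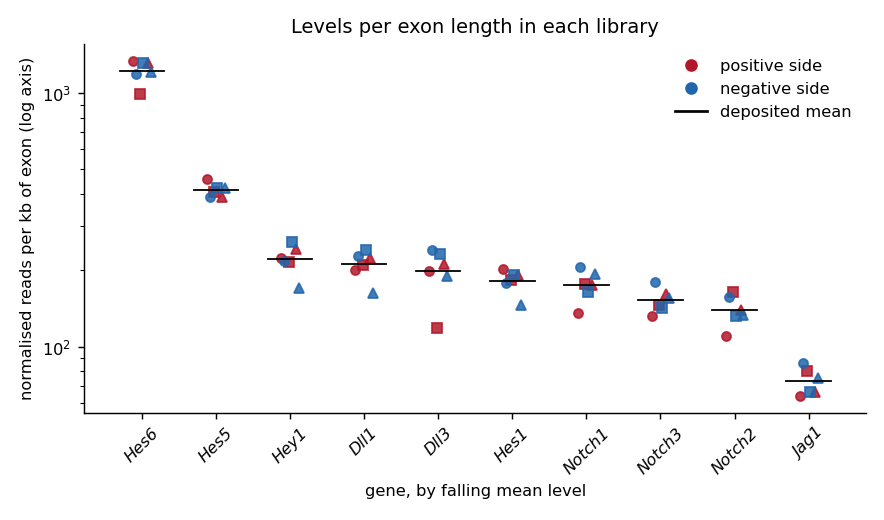
Normalised reads per kb of annotated exon (log axis) for the 10 genes in order of falling mean; points are the 6 libraries, coloured by side, and the bar is the deposited mean over exon length. Hes6 stands at 989 reads per kb or more in every library, Hes5 between 388 and 458, and Jag1 between 64.1 and 86.4.

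The letters bound by RBPJ were looked for upstream of the gene starts. Upstream windows of 250 bases were at hand for 8 of the 10 genes (RefSeq, GRCm38.p6). Hes1 and Hey1 had no window, so they were not searched. The core TGGGAA was searched on both strands. The 8 genes have 10 windows, and the core occurs in 1 of the 10, that of Hes5, where it occurs at 2 places. Of all 32851 promoter windows, 21.6% hold at least 1 match and 2.77% at least 2. Both matches of the Hes5 window extend to the longer form GTGGGAA, which overlaps the core. That form is found in 5.42% of all windows, and at 2 or more places in 0.161%. The window lies at chr4:154960673-154960922 on the plus strand and is shown because it holds both matches, in capitals: the first starts 226 bases before the annotated start and reads on the minus strand, and the second starts 82 bases before it and reads on the plus strand.
Hes5: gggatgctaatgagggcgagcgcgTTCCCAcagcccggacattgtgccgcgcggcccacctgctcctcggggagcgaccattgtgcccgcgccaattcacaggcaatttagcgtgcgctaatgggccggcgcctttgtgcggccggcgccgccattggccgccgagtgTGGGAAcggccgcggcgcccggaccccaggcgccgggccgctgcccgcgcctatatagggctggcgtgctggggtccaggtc
A match of letters is a description of the reference sequence, and no binding was measured here.

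Among the receptors, Notch1, the receptor needed to keep cortical progenitors, lies on chromosome 2 from 26457903 to 26516663 on the minus strand (mm10, GENCODE M21). Notch1 had 1934, 2514 and 2495 normalised reads in the positive-side libraries, against 2936, 2347 and 2763 in the negative-side libraries. Library 1 of the positive side was the lowest and library 1 of the negative side the highest, and the sides overlap. In the authors' deposited table Notch1 had a log2 fold change and standard error of -0.21 ± 0.13, with an unadjusted p of 0.094 and an adjusted p of 1.00 (DESeq2). An exact two-sided permutation test of the normalised reads gave p = 0.30, where 3 libraries against 3 cannot go below 0.10.

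Notch2, a receptor with many cortical progenitor functions in common with Notch1, lies on chromosome 3 from 98013527 to 98150361 on the plus strand. Counted in normalised reads, Notch2 stood at 1190, 1777 and 1508 among positive-side libraries and at 1693, 1432 and 1440 among negative-side ones. The lowest and the highest library both belong to the positive side. In the authors' deposited table Notch2 stood at a log2 of -0.03 ± 0.15, with a 95% interval of -0.32 to 0.26.

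Notch3 is known for its role in pericytes and vascular smooth muscle and is also expressed by neural progenitors. It lies on chromosome 17 from 32120820 to 32166852 on the minus strand. The 3 positive-side libraries held 1075, 1179 and 1307 normalised reads of Notch3, and the 3 negative-side libraries 1461, 1154 and 1255. The lowest library was again library 1 of the positive side, the highest library 1 of the negative side, and the sides overlap. For this gene the authors' deposited table gives a log2 fold change of -0.12 ± 0.12. Notch4, a receptor of endothelial cells outside the 10 genes, had 366, 350 and 354 normalised reads against 378, 355 and 341, and the authors' deposited table lists it at a log2 of -0.01 ± 0.13.

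Library 1 of the positive side gave the lowest value of all 3 receptors and of Jag1, that is of 4 of the 10 genes. It was the lowest library for 16.1% of the resolved genes whose mean reached 50. Library 1 of the negative side gave the highest value for Notch1, Notch3, Dll3 and Jag1, against 14.4% of those genes. Library 1 of the positive side was highest for Hes1, Hes5 and Hes6, against 13.6% of those genes, and library 2 of that side lowest for Dll3 and Hes6, against 24%.

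**Figure D3:**
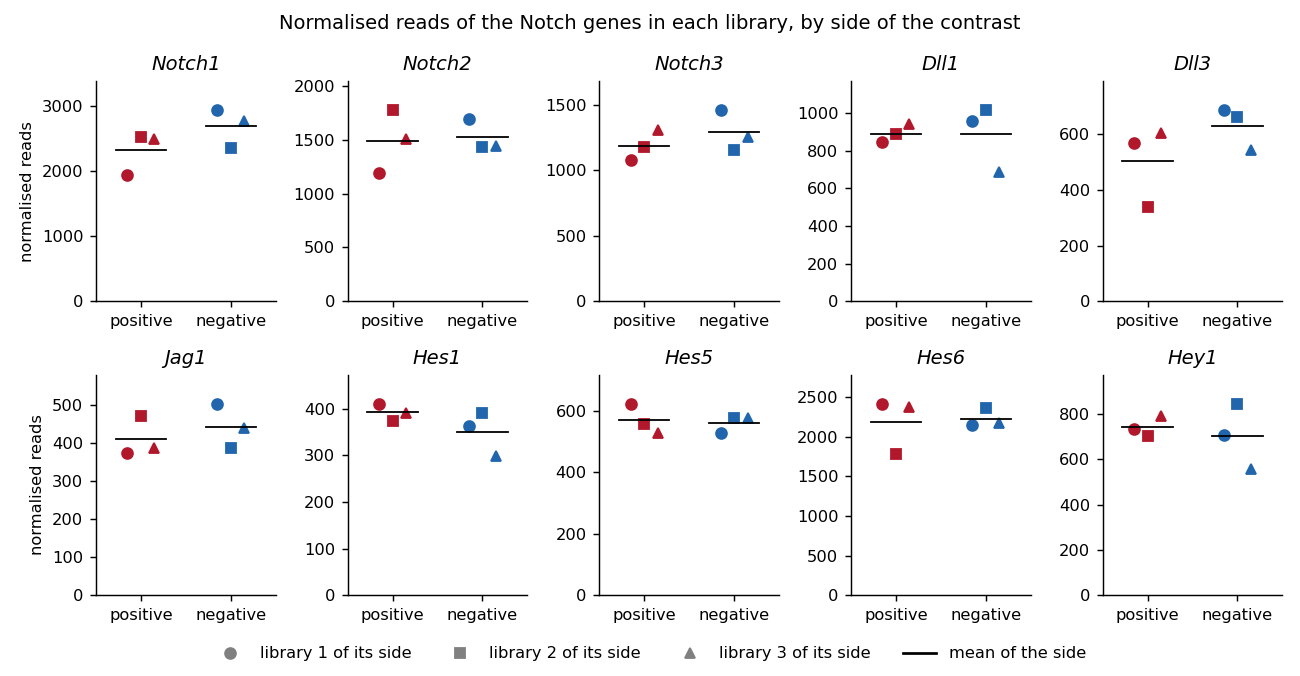
Normalised reads (linear axes from 0) of each of the 10 genes in the 6 libraries, by side of the deposited contrast; symbols number the libraries within a side and bars are the means of a side. The sides overlap in every panel, and single libraries stand low in Dll3 (340, positive library 2) and Dll1 (688, negative library 3).

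Among the ligands, Dll1 activates Notch in neighbouring cells and is switched on by proneural factors. It lies on chromosome 17 from 15367354 to 15376872 on the minus strand. Dll1 had 847, 888 and 942 normalised reads in the positive-side libraries, against 960, 1018 and 688 in the negative-side libraries. Library 3 of the negative side was the lowest and library 2 of that side the highest. On the log2 scale of the authors' deposited table Dll1 stood at 0.00 ± 0.15 (0.0034 before rounding), the smallest of the 10 genes.

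Dll3, a ligand that is known to inhibit Notch in the cell that makes it, lies on chromosome 7 from 28293553 to 28302238 on the minus strand. Counted in normalised reads, Dll3 stood at 568, 340 and 605 among positive-side libraries and at 686, 661 and 541 among negative-side ones. Library 2 of the positive side was far below the other 5, and the sides overlap. At -0.32 ± 0.21 on the log2 scale in the authors' deposited table, Dll3 had the largest fold change of the 10 genes, with an unadjusted p of 0.12 and an adjusted p of 1.00 (DESeq2). Its standard error was also the widest of the 10, where the median gene with 50 or more normalised reads had 0.12. Without library 2 of the positive side the log2 fold change of Dll3 was -0.10, and the exact two-sided permutation p with all libraries was 0.30. Per kb of exon, Dll3 stood at 0.566 times Dll1 in that library and at 0.950 to 1.16 times Dll1 in the others.

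Jag1, a Jagged ligand of progenitors and of blood vessels, lies on chromosome 2 from 137081456 to 137116644 on the minus strand. The 3 positive-side libraries held 373, 470 and 387 normalised reads of Jag1, and the 3 negative-side libraries 503, 387 and 438. The extremes were the same pair of libraries as for Notch1, and the sides overlap. For this gene the authors' deposited table gives a log2 fold change of -0.11 ± 0.16. Of the ligands outside the 10 genes, the authors' deposited table lists Jag2 at a log2 of 0.08 ± 0.17 and the endothelial ligand gene Dll4 at 0.30 ± 0.20. Dll4 gave 141, 150 and 127 normalised reads in positive-side libraries and 117, 108 and 114 in negative-side ones. These sides do not overlap, as for 8.87% of the 10719 resolved genes whose mean reached 50, while among the 10 Notch genes the sides of 0 were apart.

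Among the targets, Hes1, a repressor of proneural genes in progenitors, lies on chromosome 16 from 30064384 to 30067796 on the plus strand. Hes1 had 411, 375 and 390 normalised reads in the positive-side libraries, against 362, 391 and 299 in the negative-side libraries. Library 3 of the negative side was the lowest, and the other 5 lay within 362 to 411. In the authors' deposited table Hes1 stood at a log2 of 0.16 ± 0.15, the largest on the positive side among the 10 genes, with an unadjusted p of 0.28.

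Hes5, the effector most restricted to neural progenitors, lies on chromosome 4 from 154960923 to 154962371 on the plus strand, directly after the window printed above. Counted in normalised reads, Hes5 stood at 624, 556 and 529 among positive-side libraries and at 529, 577 and 577 among negative-side ones. The highest library was 1.18 times the lowest, the smallest such ratio of the 10 genes. On the log2 scale of the authors' deposited table Hes5 stood at 0.02 ± 0.12, with a 95% interval of -0.21 to 0.26. Per kb, Hes5 stood at 2.02 to 2.88 times Hes1, with the highest ratio in library 3 of the negative side, where Hes1 was low.

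Hes6 lies on chromosome 1 from 91411483 to 91414038 on the minus strand. The 3 positive-side libraries held 2420, 1788 and 2371 normalised reads of Hes6, and the 3 negative-side libraries 2147, 2362 and 2177. Library 2 of the positive side was the lowest, as it was for Dll3. In the authors' deposited table Hes6 stood at a log2 of -0.02 ± 0.12.

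Hey1, a repressor of the Hey branch that acts in progenitors and in blood vessels, lies on chromosome 3 from 8663359 to 8667256 on the minus strand. Hey1 had 732, 705 and 791 normalised reads in the positive-side libraries, against 710, 847 and 559 in the negative-side libraries. Both extremes belong to the negative side. On the log2 scale of the authors' deposited table Hey1 stood at 0.07 ± 0.15. Library 3 of the negative side gave the lowest value of Dll1, Hes1 and Hey1, 3 of the 10 genes, and was the lowest library for 20.6% of resolved genes whose mean reached 50.

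The remaining Hes and Hey genes had lower means than the 4 targets above. Hey2, which acts with Hey1 in blood vessels and heart, gave 55.1, 48.9 and 36.5 normalised reads in positive-side libraries and 24.3, 29.8 and 22.4 in negative-side ones. The sides do not overlap, and the exact two-sided permutation p of 0.10 is the smallest that 3 against 3 allows. In the authors' deposited table Hey2 stood at a log2 of 0.88 ± 0.39, with an unadjusted p of 0.023 and an adjusted p of 0.99 (DESeq2), so it was not called. Heyl had 0.28 ± 0.18 and Hes7, the segmentation clock gene, 0.29 ± 0.50 in the authors' deposited table. Hes3 had a mean of 0.184, the worth of 1 read in library 3 of the positive side, and Hes2 was listed at 0.

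The wider pathway was taken as 12 lists of 83 gene symbols, with Tle5 and Aes, symbols of the same gene, counted apart. Of these symbols 81 had a fold change. By the authors' deposited table, 0 of the 81 were called in either direction (DESeq2), and 3 had an unadjusted p under 0.05, which is 3.70% beside 3.96% of all genes tested. Their median log2 fold change in the authors' deposited table was 0.01, with 45 positive and 36 negative.

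**Figure D4:**
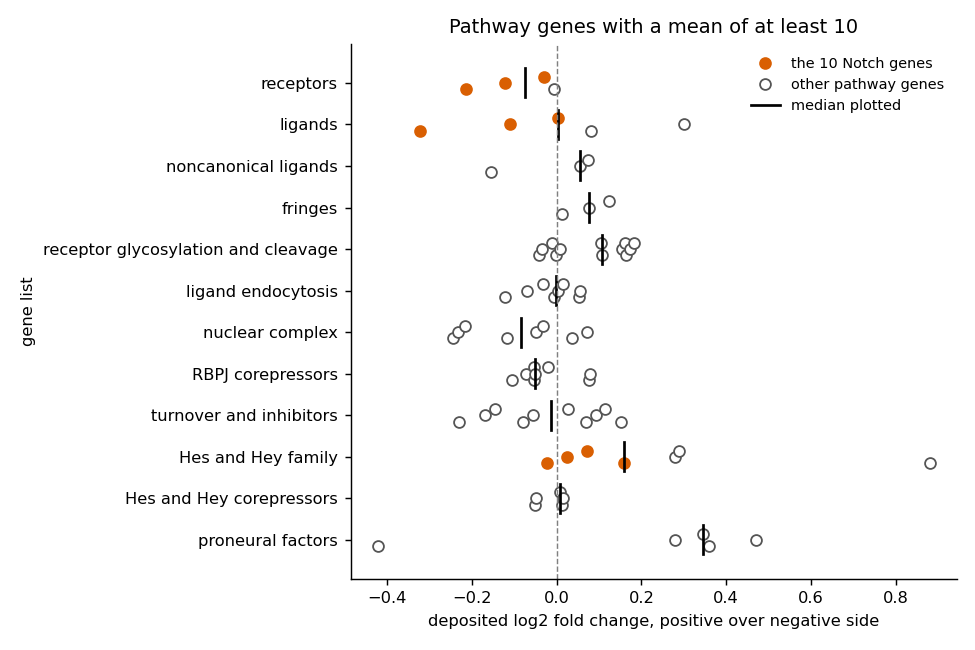
Deposited log2 fold changes of the pathway genes with a mean of at least 10 normalised reads, by list; filled points are the 10 Notch genes, open points other genes, and the vertical bar is the median of the points plotted. Most points lie within 0.3 of 0; on the positive side the farthest are Hey2 at 0.88 and the proneural gene Neurod4 at 0.47.

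Across the 12 lists 74 genes had resolved reads and a mean that reached 50, and the sides of 7 did not overlap. Of all resolved genes whose mean reached 50, 8.87% had such sides. The list of genes that modify and cut the receptor gave the most of the 7. Of the 12 genes of glycosylation and cleavage 8 were positive in the authors' deposited table, where their median log2 was 0.11. Of the 11 whose mean reached 50, the normalised reads of 5 lay higher in all libraries of the positive side than in any of the negative side, against 4.61% of resolved genes. Furin, the protease of the first receptor cut, gave 1275, 1260 and 1251 normalised reads in positive-side libraries and 1056, 1113 and 1173 in negative-side ones. For this gene the authors' deposited table gives a log2 fold change of 0.18 ± 0.09, with an unadjusted p of 0.034 and an adjusted p of 1.00 (DESeq2). The other 4 were the O-fucosyltransferase gene Pofut1 at 0.17 ± 0.10, the O-glucosyltransferase gene Poglut1 at 0.16 ± 0.08, the gamma-secretase subunit gene Psenen at 0.16 ± 0.09 and the protease gene Adam17 at 0.15 ± 0.10, as log2 fold changes in the authors' deposited table. Adam10, the main protease of ligand-induced cutting, stood at -0.04 ± 0.07 (log2) in the authors' deposited table. None of the 12 passed the test. Library 3 of the negative side was the lowest library for 7 of the 12, against 20.6% of resolved genes whose mean reached 50. The 7 include Aph1c, whose mean of 48.9 lies under 50, so the 2 shares do not cover like sets.

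The fringe genes, whose enzymes tune which ligand a receptor answers, were positive in 3 of 3, with Mfng at 0.12 ± 0.16, Lfng at 0.08 ± 0.13 and Rfng at 0.01 ± 0.09 in the authors' deposited table. On the signal-sending side 4 of 8 genes of ligand endocytosis were positive. Mib1, the ubiquitin ligase that ligands need, stood at 0.05 ± 0.10 and Neurl1b at -0.12 ± 0.17 (log2) in the authors' deposited table. Ligand-like genes were positive in 3 of 4, with Dlk1 at 0.05 ± 0.20 and Dlk2 at -0.15 ± 0.22 in the authors' deposited table.

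In the nucleus, Rbpj gave 3232, 3341 and 3584 normalised reads in positive-side libraries and 3511, 3349 and 2806 in negative-side ones. For this gene the authors' deposited table gives a log2 fold change of 0.07 ± 0.10. In the list of the nuclear complex 6 of 8 genes were negative, with the acetyltransferase gene Kat2b at -0.25 ± 0.13 and the Mastermind genes Maml2 at -0.23 ± 0.14 and Maml3 at -0.22 ± 0.17 in the authors' deposited table. The sides of Kat2b do not overlap, at 274, 279 and 293 against 344, 336 and 321 normalised reads. Of all resolved genes whose mean reached 50, 4.26% were likewise apart with the negative side higher. RBPJ corepressor genes were negative in 6 of 8, from Spen at -0.10 ± 0.11 to Hdac1 at 0.08 ± 0.11 in the authors' deposited table. TLE genes, whose proteins Hes repressors recruit, lay within -0.05 and 0.02 in all 5 with a fold change in the authors' deposited table.

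Genes that restrain or turn over Notch were split evenly, 5 positive and 5 negative. Nrarp, a feedback inhibitor that is itself a Notch target, gave 1893, 1686 and 1860 normalised reads in positive-side libraries and 1805, 1845 and 1532 in negative-side ones. For this gene the authors' deposited table gives a log2 fold change of 0.07 ± 0.10. Numb, an inhibitor inherited unequally by daughter cells, had 0.15 ± 0.15, its relative Numbl 0.09 ± 0.08 and the ubiquitin ligase gene Fbxw7 -0.17 ± 0.12 in the authors' deposited table.

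Proneural genes act against Hes1 and Hes5 and switch on Dll1. Neurog2, the main proneural gene of the cortex, gave 5552, 5037 and 6684 normalised reads in positive-side libraries and 4477, 5667 and 3451 in negative-side ones. Its lowest library was library 3 of the negative side, where Dll1, Hes1 and Hey1 were also lowest. On the log2 scale of the authors' deposited table Neurog2 stood at 0.35 ± 0.16, with an unadjusted p of 0.035 and an adjusted p of 1.00 (DESeq2). Neurod4 had 0.47 ± 0.26 and Neurod1 0.28 ± 0.15 in the authors' deposited table, and none of the 6 proneural genes passed the test.

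Fold changes of the 10 genes were refitted with each library left out, with the size factors and the dispersion of the deposited fit held. None of the 10 genes was called in any of the 6 refits, adjusted over all resolved genes, nor with all libraries, where 0.178% of resolved genes were. Of all resolved genes 0.0332%, 0% and 0.205% were called without libraries 1, 2 and 3 of the positive side, and 0%, 0.126% and 0% without libraries 1, 2 and 3 of the negative side. Of the 10 genes 5 kept their sign throughout: Notch1, Notch3, Dll3, Jag1 and Hes1. Without library 1 of the negative side Jag1 stood at -0.007 and Notch3 at -0.02. The share of all resolved genes that kept their sign was not determined, so the count has no background. Notch1 ranged from -0.30 without library 2 of the negative side to -0.10 without library 1 of the positive side. Dll3 ranged from -0.47 to -0.10, and Hes1 from 0.06 without library 3 of the negative side to 0.24 without library 2 of that side. The smallest unadjusted p in these refits was 0.035 for Notch1, and the adjusted p there was 0.85 (negative binomial Wald test as in DESeq2). By the same test Dll3 had an unadjusted p of 0.040 without library 3 of the positive side. Its adjusted p there, 0.80, was the smallest of the 10 genes. Notch2, Dll1, Hes5, Hes6 and Hey1 changed sign in 1 or 2 of the 6 refits.

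**Figure D5:**
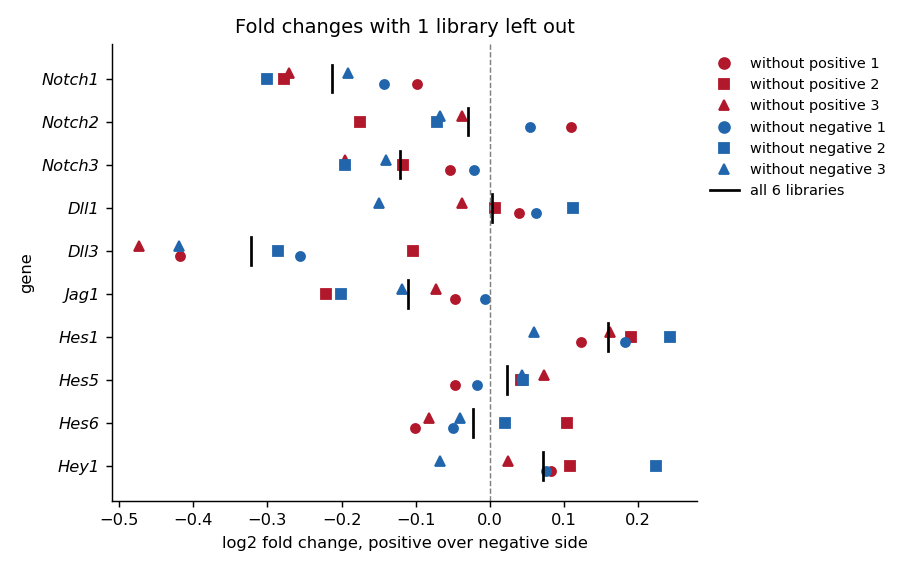
Log2 fold changes of the 10 genes with each library left out in turn (symbols), beside the value with all 6 libraries (black bar); the dashed line marks no difference. Dll3 moves most, to -0.10 without positive library 2, and Notch1, Notch3, Dll3, Jag1 and Hes1 stay on their side of 0.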

How the data were processed

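Polyadenylated RNA of 6 libraries was compared, 3 per group by their titles. Tools listed by the submitters' processing notes are cutadapt, featureCounts and DESeq2, with the build mm10. For the aligner, annotation, strand setting and versions: not given in the sources used here. Notch1, Notch2, Notch3, Dll1 and Hes5 overlap other annotated genes, so reads could be shared.

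The authors deposited 1 comparison, with 0 columns of values per sample. Per the file headers the base mean is a signal, the average over libraries of reads scaled by size factors. The deposited fold change and standard error are on the log2 scale, the deposited Wald statistic is a score, and the deposited p-values and adjusted p-values are those the authors obtained with DESeq2.

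The means of genes with a single read gave the worth of 1 read per library (size factors 0.85 to 1.11) and, by sign, the 3 libraries of each side. For each gene, sets of 6 whole numbers giving the mean to its 15 digits were listed. The search was bounded around the reads expected from the fold change, with a width set by the standard error. Sets outside that range were not listed. The set was kept whose negative binomial fit, with the dispersion solved from the standard error, gave the fold change within 1e-12. Of 17171 genes with a mean up to 4000, 15130 (88.1%) gave 1 set, 0 gave several and 2041, most with a mean under 1, gave none. A wider search resolved 13 of 21 further list genes. The method was tested on simulated data.

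The members and gene lists were chosen with earlier results of these data known. All 10 members are named, with up to 4 other genes per list by smallest p and genes whose reads were resolved. A gene was called at an adjusted p under 0.05 over all genes. Leave-one-out fits, other adjustments and re-centring were tried. Precision is limited by 3 libraries per side; total depth stays unknown. Python 3.11.15, numpy 2.4.6, scipy 1.17.1 and GENCODE M21 were used. Some genes of the lists are not reported here.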

Additional observations from a re-analysis of the deposited data

How the results depend on the processing

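The count of 0 called Notch genes held with adjustment limited to genes whose mean reached 10 or 50, without adjustment, with the Benjamini-Yekutieli adjustment, with a t distribution of 4 degrees of freedom, after re-centring and with each library left out. Of all genes, 31 were called with a mean of at least 10, 16 with at least 50 and 0 with the t distribution or Benjamini-Yekutieli. Without 1 library 0 to 31 of the resolved genes were called, against 27 with all 6 libraries. Among the 81 pathway genes, 3 passed without adjustment, and 0 with the t distribution or after re-centring. Of the 78 with resolved reads, 0 passed with any 1 library left out. The other adjustments were not run for the wider pathway. The median log2 fold change of the 10 genes, -0.03, was -0.02 after re-centring, -0.05 as a weighted mean, -0.02 or -0.03 without any 1 gene, and -0.09 to -0.01 without 1 library. Refits without a library and alternatives for the wider pathway were partly chosen after seeing the data. No paired analysis was possible because libraries resolved from the table carry no replicate number.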

Other observations

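The pathway genes named here as known from blood vessels, a grouping made after their values were seen, lay on both sides. By the authors' deposited table Dll4, Hey2 and Hey1 stood at 0.30, 0.88 and 0.07 (log2 fold change). Notch3, Jag1 and Notch4 stood at -0.12, -0.11 and -0.01 there. Endothelial markers were positive in 7 of 8 there, with a median log2 of 0.26, and mural markers in 5 of 7, with a median of 0.06. The part of these markers in the values of these genes was not tested.

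The standard errors of Dner and Dtx4 in the authors' deposited table, 0.36 and 0.42, were the widest of the pathway genes with a mean of at least 50. Dner, a Notch-binding protein gene of neurons, reached 4850 normalised reads in positive library 2, against 2254 to 3188 elsewhere. Dtx4, a Deltex ubiquitin ligase gene, had 2774 normalised reads in library 3 of the negative side and 1197 to 1755 in the other 5.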
